A study of Mus musculus with 235 samples.

Results

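The CER punches are 1 of 8 punched regions of the mouse brain, and their response to dexamethasone against vehicle was taken from the 30 CER libraries among 235 in all. The labels gave the region and the arm of each library, and 15 libraries came from animals given dexamethasone and 15 from animals given vehicle. All animals were male C57Bl/6 mice aged 3 months, with no genetic change stated. The dexamethasone group received 10 mg/kg and the vehicle group 0.9% saline, both intraperitoneally, and the brains were perfused and taken after 4 h. Each CER library came from a different animal, so the spread between libraries holds differences between mice together with those between punches and library preparations. The region is called CER as in the labels, which do not spell the name out.

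Dexamethasone is a synthetic glucocorticoid that binds the glucocorticoid receptor, a steroid-activated transcription factor encoded by Nr3c1. The bound receptor moves to the nucleus, where it raises the transcription of genes near its binding sites and lowers that of others, partly through other transcription factors. In the brain the receptor is made by neurons, astrocytes, oligodendrocytes, microglia and vessel cells, so a punch of tissue reports their summed response. Messenger RNA was read from its 3′ end, with molecular identifiers to count each captured molecule once. Levels are given in counts per 1000000 (CPM) of the library total, scaled by trimmed mean of M values (TMM) factors.

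The CER libraries held 268538 to 978777 counts, with a median of 738846.5. RNA integrity (RIN) had a median of 6.2 with vehicle and 6.1 with dexamethasone, and no difference between the arms was detected in RIN or in the total (two-sided permutation tests, adjusted p = 0.677 for both). The vehicle library of replicate 8 stood apart, with a RIN of 2.5 and the lowest total. Of 10 listed genes each of cerebellar granule and Purkinje cells, nearly all had a higher mean in another region than in CER. For the granule cell genes 0 had their highest mean of the 8 regions in CER, and 4 had a mean under 5 CPM there, among them Gabra6, at 0 CPM in 26 of the 30 libraries. For the Purkinje genes these counts were 1 and 2, with Pcp2 also at 0 CPM in 26 libraries and Pvalb, which other neurons make too, at a mean of 192 CPM. Zic1, at a mean of 82.8 CPM in CER, was higher in PVN. These marker means are without TMM scaling. Of the genes of midbrain and hindbrain neurons, 12 of 14 had a higher mean in CER than in any of the 7 other regions. Of 5 tested between the arms 0 passed in edgeR, DESeq2 or limma, with 0 at an unadjusted p under 0.05, and with the replicate number as a block 1 passed, Slc6a5, a glycine transporter (0.77, adjusted p = 0.049, edgeR). These genes varied widely between punches within both arms. Tph2, the serotonin-synthesising enzyme of raphe neurons, ran from 0 to 499 CPM with vehicle and from 14.5 to 433 CPM with dexamethasone. Slc6a3, the dopamine transporter, ran from 0 to 401 CPM and from 0 to 89.4 CPM.

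At 4 h, 558 of 9035 genes tested in CER differed between the arms (6.18%, edgeR quasi-likelihood test, Benjamini-Hochberg adjusted p under 0.05). Of these, 352 rose (3.90%) and 206 fell (2.28%), the shares against which each count of list members is to be read. The largest rises were in Itgad and in Cdkn1a, a cell cycle inhibitor, and the largest falls in Cx3cr1, a chemokine receptor of microglia, and Trim59. The arms were fully separate, with no overlap between any libraries, for 56 genes (0.620%). In 52 of these every dexamethasone library lay above every vehicle library (0.576%). The reverse held for 4 (0.0443%), namely Cx3cr1, Trim59, Kdr and Cdc42ep1. Without both libraries of replicate 8, 554 genes differed.

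**Figure D1:**
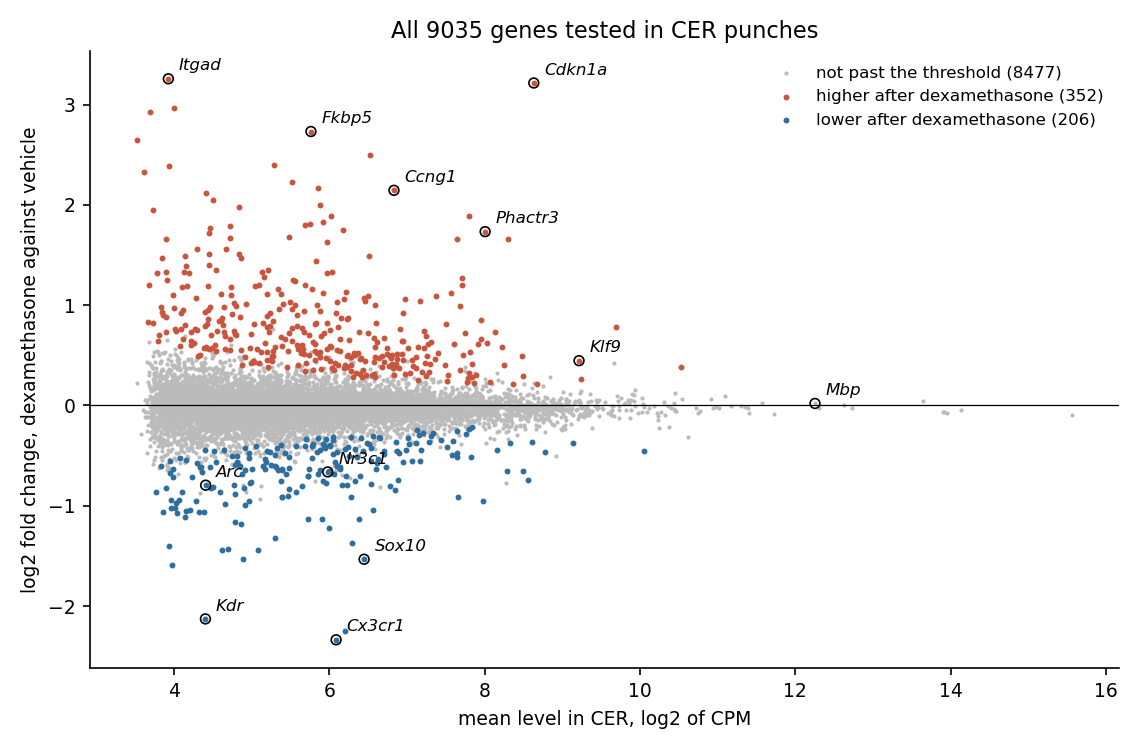
Each point is 1 of the 9035 genes tested in CER, placed by its mean level (log2 of CPM, x axis) and its log2 fold change of dexamethasone against vehicle (y axis). The 352 genes that rose are red, the 206 that fell are blue, and the named genes are circled; Itgad and Cdkn1a lie highest, and Cx3cr1 lowest.

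Itgad (ENSMUSG00000070369, chromosome 7, 128154376 to 128223816) encodes the integrin alpha D chain, a subunit of a leukocyte adhesion receptor. It was at 1.03, 1.84 and 8.02 CPM (lowest, median and highest of 15) with vehicle, and at 15.6, 26.5 and 41.5 CPM with dexamethasone. The lowest dexamethasone library lay above the highest vehicle library. On the log2 scale the rise was 3.26 ± 0.24 (SE), with an adjusted p of 4.42e-14 (edgeR). It rests on 28 counts over the vehicle libraries and 304 over the dexamethasone libraries, so that the vehicle levels are close to single molecules per library and the gene passed the filter on low counts through the dexamethasone arm. Without that filter the value was 3.26 (adjusted p = 1.28e-14, edgeR). On the authors' variance-stabilised values, which are on another scale, it was 1.14 (adjusted p = 6.65e-15, limma). The exons of Itgad overlap those of Cox6a2 on the opposite strand, and Cox6a2 had a mean of 1.13 CPM in CER, without TMM scaling. Whether the counts kept the strands apart is not given in the sources used here.

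Ccng1 (ENSMUSG00000020326, chromosome 11, 40748552 to 40755311) encodes cyclin G1, a classic target of the transcription factor p53. Vehicle libraries lay at 27.8, 40.4 and 61.6 CPM (lowest, median, highest), and dexamethasone libraries at 117, 181 and 244 CPM. The arms did not overlap. The log2 fold change was 2.15 ± 0.11 (SE, adjusted p = 1.44e-19, edgeR).

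Phactr3 (ENSMUSG00000027525, chromosome 2, 178118975 to 178338492) encodes a regulator of protein phosphatase 1 and actin. Its vehicle libraries lay within 95.6, 125 and 140 CPM (lowest, median, highest), a range narrower than its median. With dexamethasone it was at 318, 391 and 486 CPM. The arms were again separate, and the rise on the log2 scale was 1.73 ± 0.08 (SE), with an adjusted p of 8.64e-21 (edgeR).

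Arc (ENSMUSG00000022602, chromosome 15, 74669083 to 74672570) encodes an activity-regulated protein of neuronal synapses. It was at 10.1, 24.8 and 53.4 CPM with vehicle (lowest, median, highest) and at 5.76, 15.4 and 28.1 CPM with dexamethasone. The arms overlapped, and the highest 5 libraries all belonged to the vehicle arm. Arc fell by 0.79 on the log2 scale (SE 0.21, adjusted p = 0.0124, edgeR), in the same direction in all 4 plates. Genes of cerebral cortex neurons gave these values beside it: 0 of 8 tested passed in edgeR, DESeq2 or limma on the authors' values, 5 had an unadjusted p under 0.05, and their median log2 fold change was -0.60. Their summed level ran over 338, 614 and 2718 CPM with vehicle and over 396, 527 and 957 CPM with dexamethasone (lowest, median, highest). Vehicle replicate 9 had the highest mean log2 level of these genes, 6.56. It held 34 Arc counts, and the highest Arc count, 40, was in vehicle replicate 6. With the level of these genes as a covariate, an alternative added after the data were seen, the log2 fold change of Arc was -0.66 (adjusted p = 0.0276, edgeR). On the authors' variance-stabilised values, which are on another scale, Arc was at -0.34 (adjusted p = 0.0298, limma).

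**Figure D2:**
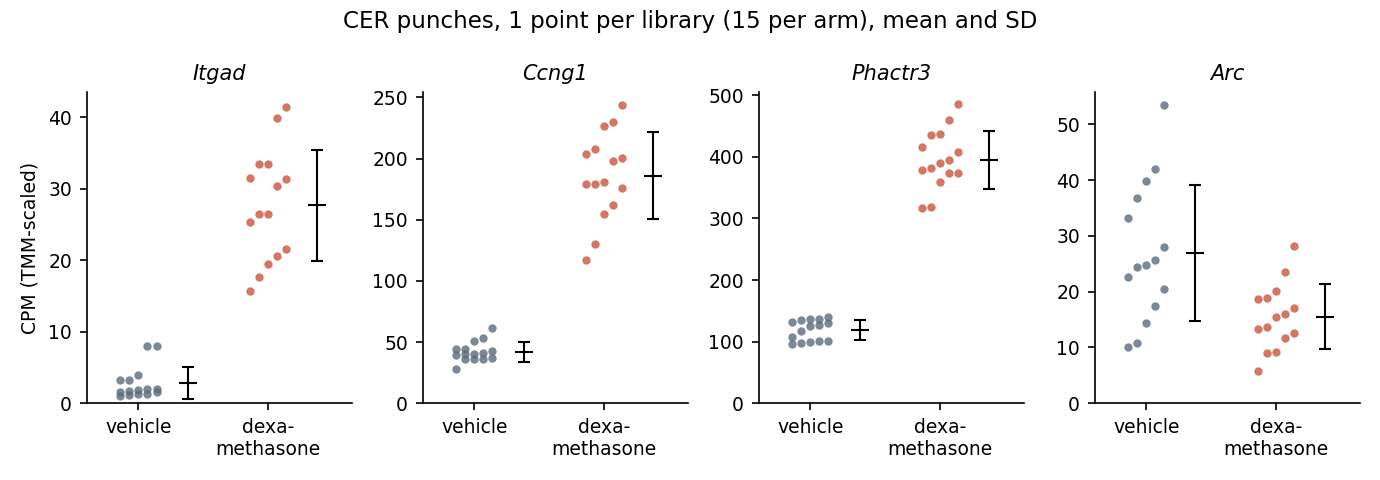
Each point is 1 CER library, 15 with vehicle (grey) and 15 with dexamethasone (red), and the y axis is CPM from 0; the line and bar beside them are the mean and SD. The arms are separate for Itgad, Ccng1 and Phactr3 and overlap for Arc, whose highest vehicle library was at 53.4 CPM and highest dexamethasone library at 28.1 CPM.

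The other genes of neuronal activity were tested as a list of 15 including Arc. Arc was the 1 that passed in edgeR, and DESeq2 and the fit with the replicate block called 2, the other being Ier5 (-0.49 and adjusted p = 0.00778 with the block). The share called over all genes was 6.18%, about that of 1 in 15. An unadjusted p under 0.05 was found for 5, and the median log2 fold change was -0.28 against -0.02 over all 9035 genes. Egr1, an immediate early transcription factor, was at a median of 38.9 CPM with vehicle and 36.7 CPM with dexamethasone (log2 fold change -0.28 ± 0.22, SE, adjusted p = 0.697, edgeR). Fos and Npas4, which mark recent firing, were too low in these punches to be tested, with medians of 6.84 and 1.20 CPM with vehicle. Of 16 tested genes that define neurons, 0 passed in edgeR, DESeq2 or limma, 2 had an unadjusted p under 0.05, and the median log2 fold change was 0.00. Of 28 glutamate and GABA receptor genes tested 0 passed in edgeR or limma, 1 in DESeq2 and 1 with the replicate block, with 3 at an unadjusted p under 0.05.

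The known targets of the glucocorticoid receptor rose together. Of 17 tested, 16 rose and 0 fell, against 3.90% and 2.28% over all genes, with a median log2 fold change of 1.25. The list was chosen with earlier results of these data known, so this count is only a description. Per1, a clock gene and receptor target, was the 1 that did not pass (log2 fold change 0.53 ± 0.18, SE, adjusted p = 0.0869, edgeR). With the replicate number as a block, which holds plate and nearly always punching date in common, Per1 passed at 0.60 (adjusted p = 0.00839, edgeR), and 17 of 17 rose. Fkbp5, a co-chaperone that restrains the receptor, was at 3.50, 14.7 and 29.2 CPM with vehicle (lowest, median, highest) and at 68.6, 93.5 and 117 CPM with dexamethasone (log2 fold change 2.73 ± 0.14, SE, adjusted p = 5.23e-19, edgeR). Its arms did not overlap, nor did those of Errfi1, an inhibitor of epidermal growth factor receptor signalling (log2 fold change 2.00), or of Zbtb16, a zinc finger transcription factor (1.80). Klf9, a transcription factor induced by glucocorticoids and thyroid hormone, rose by 0.45, with medians of 496 and 690 CPM. Tsc22d3, which encodes the glucocorticoid-induced leucine zipper protein, rose by 0.85, from medians of 173 to 315 CPM, and its arms overlapped. The metallothionein genes Mt2 and Mt1, whose products bind metals, rose by 0.78 and 0.38, and Mertk, a receptor for the uptake of dead cells, by 0.86.

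The vehicle libraries differed in these targets, and differences between animals and between punches cannot be told apart. The highest vehicle counts of Fkbp5 (18) and Errfi1 (29) were in replicates 14 and 6. Vehicle replicate 10 held the highest vehicle level of Plin4, Sgk1 and Cdkn1a, at 63.8, 292 and 182 CPM. For Plin4, a lipid droplet protein, the other vehicle libraries reached down to 1.59 CPM and the dexamethasone libraries began at 51.8 CPM, so the arms overlapped through that library. Sgk1, a kinase that regulates ion channels, overlapped likewise: it was at 38.5, 107 and 292 CPM with vehicle and 226, 300 and 458 CPM with dexamethasone (lowest, median, highest; log2 fold change 1.27 ± 0.20, SE, adjusted p = 9.23e-06, edgeR). The receptor gene Nr3c1 itself fell by 0.66 on the log2 scale (SE 0.12, adjusted p = 6.14e-05, edgeR), from medians of 77.2 to 47.6 CPM. Nr3c2, the mineralocorticoid receptor, did not pass (-0.42 ± 0.22, SE, adjusted p = 0.384, edgeR).

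Sgk1 was the only tested gene in CER whose promoter windows held the full palindromic site of the receptor, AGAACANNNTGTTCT. Windows were the 250 bases before a RefSeq start (GRCm38.p6), and 7179 of the 9035 genes had at least 1. Over all 32851 windows, 3 held the site. Sgk1 has 6 windows, and the site lies in the window before 1 internal start, shown here with the site in capitals because no other tested gene had such a match. The gene was chosen after this search.
Sgk1, chr10:21993640-21993889, plus strand: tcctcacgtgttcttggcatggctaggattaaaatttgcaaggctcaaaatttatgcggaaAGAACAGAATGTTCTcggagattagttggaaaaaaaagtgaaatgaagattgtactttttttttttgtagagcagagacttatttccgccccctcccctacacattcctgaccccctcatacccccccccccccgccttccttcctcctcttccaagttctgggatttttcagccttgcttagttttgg
The receptor's shorter hexamer AGAACA, on either strand and counted also inside the full site, stood in the windows of 10.6% of the 283 rising genes with a window, 13.4% of the 157 falling genes and 12.3% of all 7179. A match is only a description of letters.

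Targets of p53 and inhibitors of the cell cycle moved in part. Of 22 tested, 7 rose and 1 fell, against 3.90% and 2.28% over all genes, with a median log2 fold change of 0.06. The risers were Cdkn1a, Ccng1, Gadd45a, Gadd45g, Trp53inp1, Btg2 and Sesn1, and Cdkn1a is also a known target of the glucocorticoid receptor. Ccng1 is in this count, although its strong rise was known before the list was counted. Cdkn1a was at 38.5, 68.1 and 182 CPM with vehicle and at 576, 705 and 917 CPM with dexamethasone (lowest, median, highest; log2 fold change 3.22 ± 0.15, SE, adjusted p = 2.57e-20, edgeR). The arms were separate for Cdkn1a, Ccng1, Gadd45a, a DNA damage response protein (log2 fold change 1.79), and Trp53inp1 (1.16). The other 14 did not pass. Among them Mdm2, a p53 target that degrades p53, had a log2 fold change of 0.19 (adjusted p = 0.546, edgeR). Trp53, encoding p53, had -0.17 (adjusted p = 0.809, edgeR). Ccnd1, cyclin D1, fell by 0.76 on the log2 scale (adjusted p = 9.02e-05, edgeR). Pmaip1, a p53 target that promotes cell death within the BCL2 family, rose from a vehicle median of 3.18 to 26.8 CPM with the arms separate. Bcl2l1, a survival member of that family, rose by 0.76, while Bcl2 was at 0.01 (adjusted p = 0.999, edgeR).

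The upstream windows of Ccng1 and of Cdkn1a are shown with matches to the p53 decamer, the repeat unit of p53 sites, in capitals. Ccng1 is shown as 1 of the 4 leading genes and Cdkn1a was chosen after its values were seen. Promoters of Itgad, Phactr3 and Arc are not shown.
Ccng1, chr11:40755287-40755536, minus strand: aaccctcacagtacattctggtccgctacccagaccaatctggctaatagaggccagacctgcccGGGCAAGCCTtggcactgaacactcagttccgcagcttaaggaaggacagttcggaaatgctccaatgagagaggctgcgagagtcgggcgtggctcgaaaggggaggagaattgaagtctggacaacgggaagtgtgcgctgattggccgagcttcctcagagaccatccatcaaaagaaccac
Cdkn1a, chr17:29090729-29090978, plus strand: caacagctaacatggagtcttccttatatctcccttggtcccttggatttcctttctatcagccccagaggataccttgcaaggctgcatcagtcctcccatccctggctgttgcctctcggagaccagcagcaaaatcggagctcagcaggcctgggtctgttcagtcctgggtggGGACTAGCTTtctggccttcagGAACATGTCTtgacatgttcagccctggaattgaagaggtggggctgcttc
The search covered both strands, and the decamer reads alike on either. It stood at 1 position in the Ccng1 window and at positions 178 and 200 of this Cdkn1a window, counted from its 5′ end, and not in the other Cdkn1a window. It stood in 7.13% of all 32851 windows. Among genes tested in CER it was held by 7.03%, among those that rose by 7.07% and among those that fell by 7.64%.

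Regulators of actin and of protein phosphatase 1 gave 5 rises and 0 falls among 21 tested, with a median log2 fold change of 0.00. The shares over all genes were 3.90% higher and 2.28% lower. Phactr3 is in this count, although its strong rise was known before the list was counted. Phactr4, a relative of Phactr3, moved with it: its vehicle libraries lay at 16.5, 26.6 and 42.4 CPM and its dexamethasone libraries at 71.0, 95.5 and 119 CPM (lowest, median, highest; log2 fold change 1.83 ± 0.12, SE, adjusted p = 4.08e-15, edgeR). The other 2 family members did not pass, Phactr1 with -0.13 (adjusted p = 0.491) and Phactr2 with 0.06 (adjusted p = 0.939, edgeR). The remaining risers were the small GTPases Rhoj (1.11) and Rhob (0.58) and Mrtfb (0.49), a coactivator that senses actin. Among 9 integrin genes tested, 1 rose and 1 fell, against 3.90% higher and 2.28% lower over all genes. The riser was Itgad, whose strong rise was likewise known beforehand. The other was Itga6, a laminin-binding chain (-0.68 ± 0.11, SE, adjusted p = 7.37e-06, edgeR). Itgam, the alpha chain next to Itgad in function, was at medians of 20.8 and 14.1 CPM (log2 fold change -0.39, adjusted p = 0.281, edgeR). Itgb2, the beta chain that pairs with both, was too low to test.

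Kinases and inhibitors of insulin, FoxO and mTOR signalling moved in both directions. They gave 8 rises and 3 falls among 25 tested, against 3.90% higher and 2.28% lower over all genes. In DESeq2 and with the replicate block Pik3r1, a subunit of PI3 kinase, was added to the falls (-0.23, adjusted p = 0.0439 with the block, edgeR). Sgk3, a kinase related to Sgk1, was at 9.96, 27.4 and 48.6 CPM with vehicle and 95.1, 151 and 199 CPM with dexamethasone, with no overlap (lowest, median, highest; log2 fold change 2.49 ± 0.14, SE, adjusted p = 4.09e-18, edgeR). Ddit4, an inhibitor of mTOR complex 1, rose by 1.49 and Klf15, a metabolic transcription factor, by 1.33. Irs2 rose by 0.82 while its relative Irs1 fell by 0.51 on the log2 scale (adjusted p = 1.7e-09 and 0.0108, edgeR). Both encode adaptors of the insulin receptor. In the list of lipid and fuel use, 6 of 22 tested rose and 0 fell, beside the same shares, with a median of 0.10. With that block Cpt1a, which brings fatty acids into mitochondria, rose too (0.39, adjusted p = 0.0306, edgeR). Pnpla2, the lipase that starts the breakdown of stored fat, went from 23.9 to 84.4 CPM (medians), with the arms separate. Xdh, xanthine dehydrogenase, rose by 1.77 and Ucp2, a mitochondrial carrier, by 1.19.

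Among 11 tested regulators of NF-kappaB and inflammation, 3 rose, which were Zfp36, Nfkbia and Il6ra, and 2 fell, which were Cxcl12 and Zfp36l1. The shares over all genes were 3.90% higher and 2.28% lower. In DESeq2 and with the replicate block 4 rose, the added one being Irak1, a kinase of interleukin-1 receptor signalling (0.33, adjusted p = 0.0252 with the block, edgeR). With no filter, and with limma on the authors' values, 5 rose, among 27 and 19 tested. Zfp36, which destabilises cytokine messenger RNA, was at 7.96, 12.0 and 16.0 CPM with vehicle and 50.5, 61.8 and 92.5 CPM with dexamethasone (lowest, median, highest; log2 fold change 2.40 ± 0.12, SE, adjusted p = 4.16e-19, edgeR). Nfkbia, the inhibitor that holds NF-kappaB in the cytoplasm, went from 135 to 459 CPM (medians), and neither gene's arms overlapped. Zfp36l1, a relative of Zfp36, went the other way (-0.91). Among 16 genes of MAP kinase feedback, 3 rose and 2 fell, beside the same shares over all genes. Errfi1 rose by 2.00 and Dusp1, a phosphatase of MAP kinases, by 0.54 (higher in 3 of 4 plates), and Spry2, an inhibitor of receptor kinases, fell by 0.77 on the log2 scale. The 2 others lay close to the threshold, Dusp7 at -0.34 (adjusted p = 0.0372) and Spred1 at 0.24 (adjusted p = 0.0409, edgeR), and leaving out any of 15 and of 17 single libraries ended their calls.

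**Figure D3:**
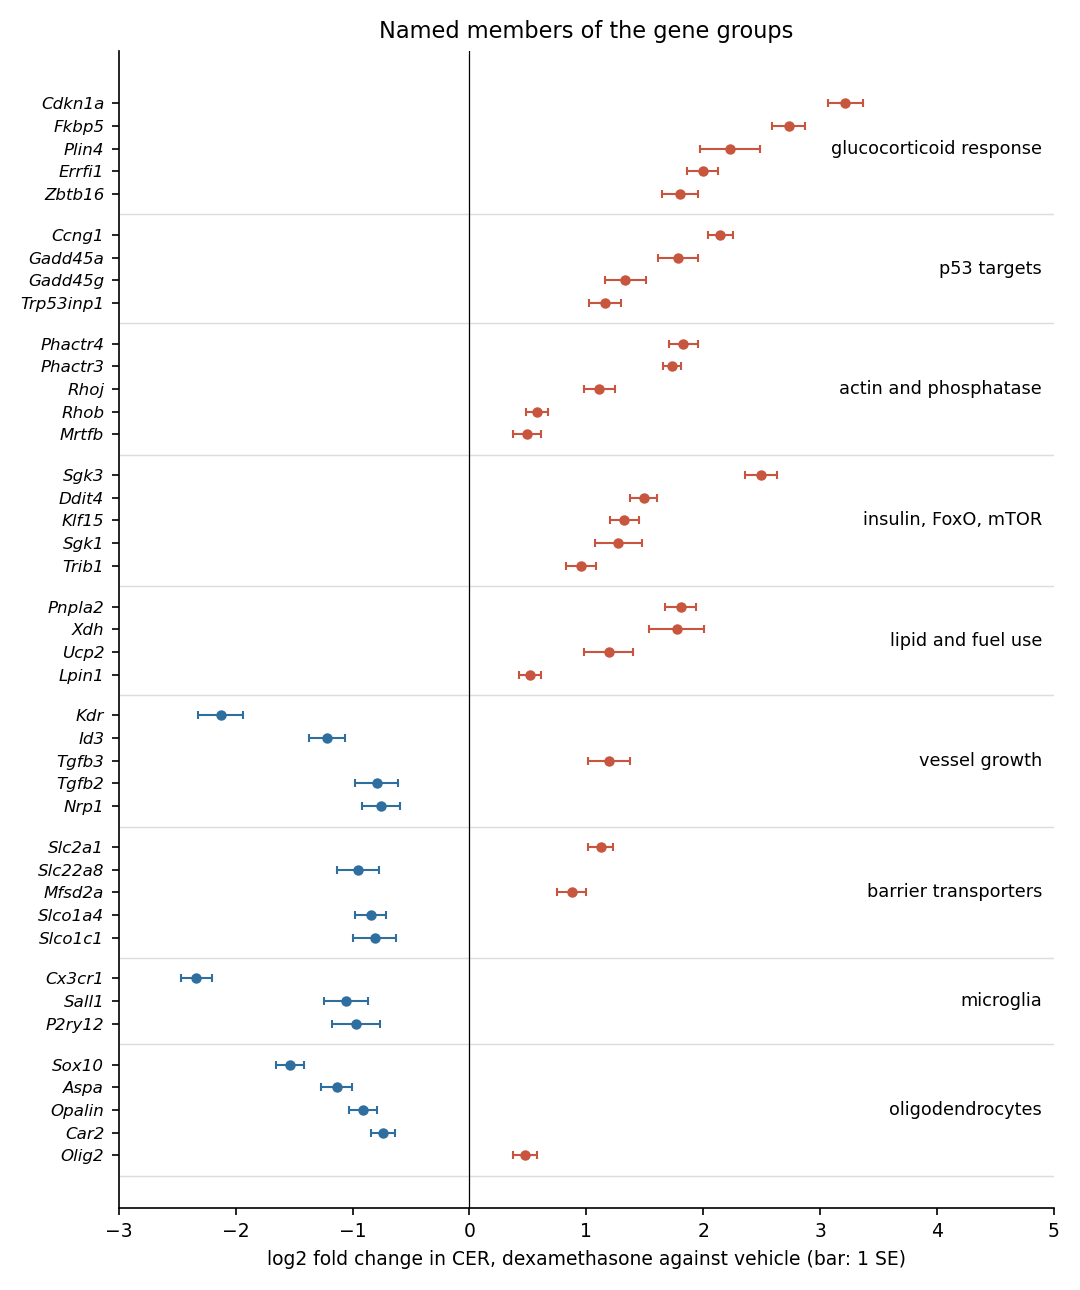
The x axis is the log2 fold change in CER of named members of 9 gene groups, each with 1 SE as a bar, red where it rose and blue where it fell. The plotted members of the upper 5 groups all rose, from Mrtfb (0.49) to Cdkn1a (3.22), while vessel growth and barrier transporters show both directions. Plotted members were picked by size of change among those that passed. Members that did not pass, and those that fell by less, such as Irs1 (-0.51), are not plotted.

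Handling of thyroid hormone gave 3 rises and 1 fall among 7 tested, against 3.90% higher and 2.28% lower over all genes. Hr, a nuclear corepressor regulated by thyroid hormone, went from a median of 30.2 to 107 CPM with the arms separate (log2 fold change 1.75 ± 0.13, SE, adjusted p = 4.12e-14, edgeR). Dio2, which activates thyroid hormone, went from 94.0 to 184 CPM (1.04). Of 16 clock genes tested, 3 fell and 0 rose, beside the same shares over all genes. With the replicate block 4 fell and 2 rose, the added genes being Hlf (-0.37), Per1 (0.60) and Tef (0.25), and DESeq2 called 3 lower and 1 higher. Without the block the falls were in Dbp (-0.62), Nr1d1 (-0.46, lower in 3 of 4 plates) and Bhlhe40. Dbp lost its call without vehicle replicate 15 (log2 fold change -0.48, adjusted p = 0.072, edgeR). Bhlhe40 (-0.41, adjusted p = 0.0364, edgeR) lost its call without any 1 of 14 libraries. Nr1d1 and Dbp share exon bases with Thra and Sphk2 on the opposite strand. Mthfd2, a mitochondrial folate enzyme, rose alone among 13 genes of one-carbon metabolism (0.90 ± 0.15, SE, adjusted p = 2.62e-05, edgeR). That count of 1 in 13 stands beside 3.90% higher over all genes. Of 20 heat shock and chaperone genes tested, 0 passed in edgeR, DESeq2 or limma, and 0 had an unadjusted p under 0.05.

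Other strong risers were in none of these lists. Traf5, an adaptor of tumour necrosis factor receptors, went from a median of 2.47 to 23.6 CPM (log2 fold change 2.93), and only vehicle replicate 4, at 12.2 CPM, reached into the dexamethasone range. Setdb2, a histone methyltransferase relative, went from 2.66 to 21.6 CPM (2.65). Pla2g3, a secreted phospholipase, rose by 2.38, Mdm1 by 2.33 and Slc25a13, a mitochondrial aspartate-glutamate carrier, by 2.17, and the arms of each were separate. Traf5, Setdb2, Pla2g3 and Mdm1, like Itgad, Pmaip1 and other risers of low vehicle level, passed the filter on low counts through the dexamethasone arm. Pla2g3 shares 401 exon bases with Inpp5j on the opposite strand.

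Among the falls was that of Cx3cr1, which was at 83.1, 110 and 170 CPM with vehicle and at 13.9, 19.5 and 44.2 CPM with dexamethasone (lowest, median, highest). Every dexamethasone library lay below every vehicle library, and the log2 fold change was -2.34 ± 0.13 (SE, adjusted p = 8.76e-18, edgeR). Among 14 microglial genes tested, 3 fell and 0 rose, against 3.90% higher and 2.28% lower over all genes, with a median of -0.14. The others that fell were Sall1, a transcription factor of microglial identity (-1.06), and P2ry12, a purine receptor (-0.97). With no filter on low counts, and with limma on the authors' values, 6 of all 22 listed genes fell. P2ry13 and Gpr34, receptors of microglia below the filter, had vehicle medians of 9.19 and 7.98 CPM and dexamethasone medians of 1.96 and 1.04 CPM, with overlapping arms. Among the genes that did not pass, Csf1r had a log2 fold change of -0.05 (adjusted p = 0.982) and C1qa -0.01 (adjusted p = 0.999, edgeR). In bulk punches fewer cells of a type and less RNA per cell cannot be told apart. The summed level of all 22 listed microglial genes ran over 559, 647 and 1100 CPM with vehicle and over 410, 512 and 647 CPM with dexamethasone.

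Kdr, the main receptor for vascular endothelial growth factor, was at 16.2, 36.0 and 52.4 CPM with vehicle and at 2.64, 6.70 and 12.7 CPM with dexamethasone (lowest, median, highest; log2 fold change -2.13 ± 0.19, SE, adjusted p = 1.86e-11, edgeR). No libraries overlapped. Over all genes tested 3.90% rose and 2.28% fell. In the list of vessel growth and transforming growth factor genes, 3 of 20 tested rose and 5 fell. With the replicate block these counts were 3 and 6: Angpt1, a ligand of the endothelial Tie2 receptor, lost its call (0.59 without the block, adjusted p = 0.0603 with it, edgeR), and Smad3 (0.38, adjusted p = 0.0235) and Id2 (-0.25, adjusted p = 0.0154) were added. Flt1, the other receptor for that factor, fell (-0.55), as did Nrp1, its coreceptor (-0.76), and Id3, a target of bone morphogenetic protein signalling (-1.22). Tgfb2 fell (-0.79) while Tgfb3 rose (1.19), and both encode transforming growth factor beta ligands. Among 13 endothelial genes, 4 fell, which were Kdr, Podxl, Flt1 and Egfl7, and Ramp2 rose (0.64), beside the same shares over all genes. With no filter on low counts, and with limma on the authors' values, 6 of all 20 listed genes fell. Cldn5, a tight junction gene below the filter, had medians of 14.4 CPM with vehicle and 5.04 CPM with dexamethasone, and its arms overlapped. Pecam1, an adhesion protein of all endothelium, was at medians of 22.7 and 22.3 CPM (log2 fold change -0.03, adjusted p = 0.993, edgeR).

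Transporters of the blood-brain barrier split. Slc2a1, the glucose transporter, rose with the arms separate, from 65.5, 119 and 158 CPM to 186, 246 and 377 CPM (lowest, median, highest; log2 fold change 1.12 ± 0.11, SE, adjusted p = 8.52e-11, edgeR). Mfsd2a, a lipid transporter that limits vesicle transport across the barrier, rose by 0.87. The 5 that fell were Slc22a8 (-0.95), Slco1a4 (-0.85) and Slco1c1 (-0.81), which carry organic anions and hormones, with Slc6a6 (-0.52) and Slc16a1 (-0.39), which carry taurine and lactate. Of 15 tested, 2 rose, 5 fell and 8 did not pass, against 3.90% higher and 2.28% lower over all genes.

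Oligodendrocyte genes showed 6 falls and 1 rise among 18 tested, against 3.90% higher and 2.28% lower over all genes, with a median of -0.16. Sox10, the transcription factor of that lineage, was at 57.6, 134 and 164 CPM with vehicle and at 27.7, 44.6 and 67.2 CPM with dexamethasone (lowest, median, highest; log2 fold change -1.53 ± 0.12, SE, adjusted p = 2.26e-13, edgeR). Vehicle replicate 1, the lowest at 57.6 CPM, alone among the vehicle libraries reached into the dexamethasone range. Aspa, an enzyme of myelin lipid supply, fell (-1.14), as did Opalin, a myelin membrane protein (-0.91), and Car2, a carbonic anhydrase (-0.74), while Olig2, another lineage factor, rose by 0.47. With the replicate block Olig1 also passed (0.32, adjusted p = 0.0157, edgeR). Mbp, which encodes a structural protein of myelin, did not pass, at 0.02 on the log2 scale (adjusted p = 0.989, edgeR).

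Sox10 was 1 of several Sox transcription factors to fall, a family listed after its values were seen. Of 11 tested, 6 fell and 2 rose, against 3.90% higher and 2.28% lower over all genes, with a median log2 fold change of -0.51. Besides Sox10 the falls were in Sox2 (-1.13), Sox21 (-1.07), Sox9 (-0.91), Sox1 (-0.63) and Sox5 (-0.51), genes of neural progenitors and glia. Sox4 (0.94) and Sox8 (0.64) rose. Hes5, a target of Notch signalling, fell by 1.44 on the log2 scale (SE 0.27, adjusted p = 0.000167, edgeR), from 8.86, 31.2 and 87.4 CPM to 2.64, 12.6 and 24.8 CPM (lowest, median, highest), and its arms overlapped. Among 20 astrocyte genes, 1 rose, the gap junction gene Gjb6 (0.49), and 1 fell, Sox9, against 3.90% higher and 2.28% lower over all genes. Cdc42ep1, an effector of the GTPase Cdc42, fell with the arms separate (-1.44 ± 0.14, SE, adjusted p = 2.23e-10, edgeR), and 3 of the 4 members of its family tested fell, a family likewise listed after its values were seen. Further falls were in Trim59, a ubiquitin ligase (-2.25), Pik3c2b, a lipid kinase (-1.59), Rasgrp3, an activator of Ras (-1.53), Frmd8 (-1.43) and Serpinb1a, a protease inhibitor (-1.41).

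Of the smaller marker lists, few members passed, to be read against 3.90% higher and 2.28% lower over all genes. Apod, a lipid-binding protein made by fibroblasts and glia, rose by 0.58 among 5 tested genes of meninges and fibroblasts, and with the replicate block Ptgds, a prostaglandin synthase, passed too (0.46, adjusted p = 0.0037, edgeR). Of 5 genes of thalamic neurons, Plekhg1 (0.74) and Prkcd (0.70) rose, and of 4 genes of striatal neurons Ppp1r1b (0.45), which encodes a phosphatase regulator, joined with the block by Penk (0.43, adjusted p = 0.00163, edgeR). Among 25 potassium channels, Kcnt1 (0.53) and Kcnk1 (0.43) rose and 0 fell, with 4 at an unadjusted p under 0.05 and the same counts of calls in DESeq2, against 3.90% higher and 2.28% lower over all genes.

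**Figure D4:**
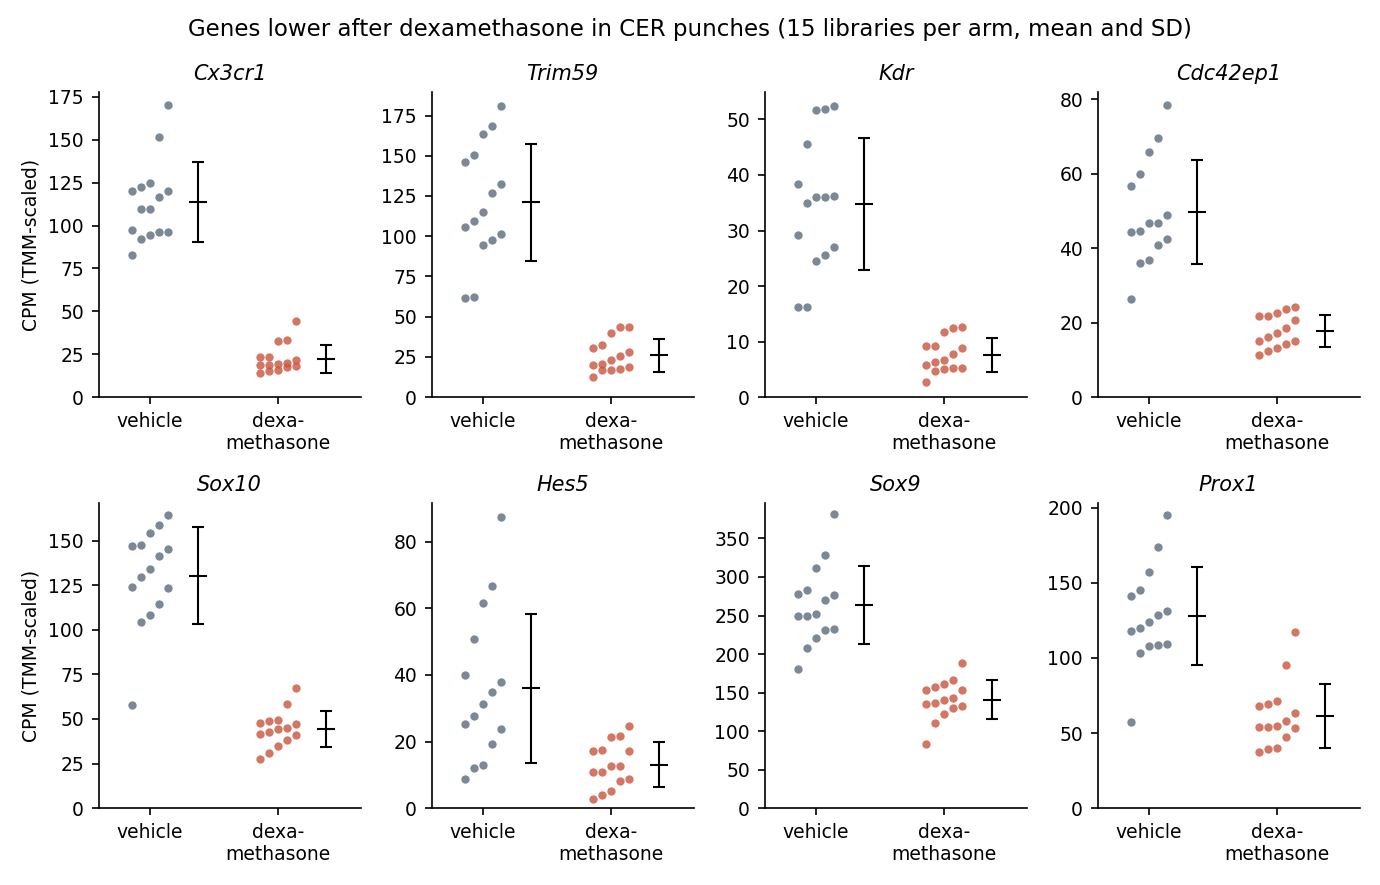
Each point is 1 CER library, 15 per arm, on a CPM axis from 0, with the mean and SD beside it, for 8 genes that fell. The upper 4 genes have separate arms; the lowest vehicle point of Sox10, at 57.6 CPM, is replicate 1.

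To ask where the CER response differed from that elsewhere, the log2 fold change in CER was compared with the mean of those in the 7 other regions, in 1 fit with the animal as a block. It differed for 56 of 11053 genes (0.507%), with CER higher for 35 (0.317%) and lower for 21 (0.190%). Ccng1 and Phactr3 were among the former. Ccng1 rose in every region, elsewhere by 0.55 in PFC to 1.80 in AMY (regions named as in the labels), and the CER response exceeded the mean of the others by 1.09 ± 0.12 (SE, adjusted p = 1.61e-12, edgeR). For Phactr3 the excess was 0.96 ± 0.11 (SE, adjusted p = 1.61e-12, edgeR), with responses elsewhere of 0.40 in PFC to 1.27 in PVN. The excess over the mean was 1.02 for Nt5c3, a nucleotidase, 1.08 for Znfx1, an antiviral helicase, 1.18 for Sgk3 and 0.89 for Phactr4. The next responses were those in AMY, at 1.20, 1.48, 1.73 and 1.39 against 1.66, 1.89, 2.49 and 1.83 in CER, and CER was not tested against single regions. Traf5, Mdm1 and Gadd45a were also called, but they passed the filter on low counts in no other region's own fit, so no response elsewhere was measured to set beside theirs.

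Mthfd2 gave the smallest p and went the other way. It rose by 0.90 in CER, 1.08 in PVN and 1.3 in AMY, and by 2.59 to 2.86 in PFC, dCA1, vCA1, dDG and vDG. The mean over the 7 other regions was 2.31, and the fitted difference was -1.40 ± 0.15 (SE, adjusted p = 4.81e-13, edgeR). Falls that were steeper in CER than the mean of the others included those of Cxcl12, a chemokine (-0.62), and Prox1, a transcription factor (-0.93). For Cxcl12 the log2 fold change in PVN, -1.17, was about that in CER, -1.16. Prox1 fell in CER (-1.04 ± 0.14, SE, adjusted p = 3.68e-07, edgeR) and also in AMY (-0.47, adjusted p = 0.0241) and PVN (-0.36, adjusted p = 0.0318, edgeR). It was positive in vCA1 (0.80, adjusted p = 0.0518, edgeR), which raises the mean of the others. For Itgad the difference was 0.44 ± 0.65 (SE, adjusted p = 1, edgeR). For Arc it was -0.85 ± 0.29 (SE, adjusted p = 0.268, edgeR), so the fall in CER was not shown to differ from the other regions, where its log2 fold change ran from -0.42 to 0.33. Nor was it for Cx3cr1 (-0.23, adjusted p = 0.944), Kdr (-0.58, adjusted p = 0.221) or Trim59 (-0.70, adjusted p = 0.12, edgeR).

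**Figure D5:**
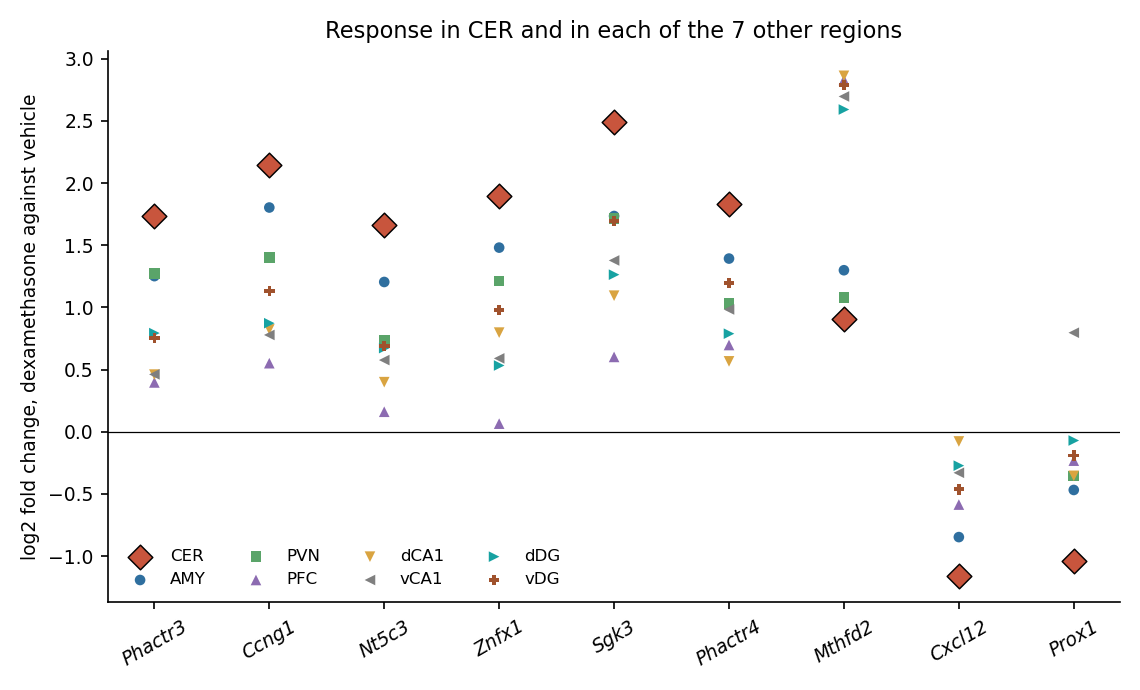
The y axis is the log2 fold change of dexamethasone against vehicle in each of the 8 regions, fitted region by region, for 9 genes whose CER response differed from the mean of the others. The red diamonds of CER are highest for the 6 genes on the left, lowest for Mthfd2 (0.90) and Prox1 (-1.04), and level with PVN for Cxcl12.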

How the data were processed

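Raw counts per gene were deposited by the authors as whole numbers for 27998 genes in 235 libraries, of which the 30 CER libraries were used here and all 235 for the comparison of regions. Per the submitters' processing notes, cutadapt, FastQC 0.11.4, STAR 2.6.0a on mm10, UMI-tools 0.5.4 and featureCounts 1.6.4 were used; the annotation and the strand setting are not given in the sources used here, so reads of genes that overlap on opposite strands may be mixed. The authors also deposited variance-stabilised log2 values (DESeq2 1.30.1, R 4.0.5, per the submitters' processing notes) for 29 CER libraries and 12927 genes, lacking vehicle replicate 8, and these served as an alternative input. Coordinates are those of the deposited count table, and 99.9% of shared identifiers overlapped their GRCm38 position in GENCODE M21, which gave 27645 symbols.

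Genes passing filterByExpr were scaled with TMM factors and tested with edgeR 4.0.16 quasi-likelihood fits (R 4.3.3) without covariates, adjusted by Benjamini-Hochberg over all genes tested, at a threshold of 0.05. Standard errors were obtained from each log2 fold change and its F statistic. The contrast of regions used 1 fit over 235 libraries with the animal as a block. The fit was also run on simulated data, with the outcome not reported here. At the library totals given, 1 count is about 1 to 4 CPM, so levels of a few CPM are imprecise. No pair of CER libraries of 1 arm agreed within sampling noise (lowest chi-square per degree of freedom 1.34). Permutation tests used 100000 resamples (scipy 1.17.1).

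Same-numbered vehicle and dexamethasone animals shared the library plate in 15 of 15 pairs and the date of punching in 14 per the labels, so the fit with the replicate number as a block is given beside the lists described whose counts it changed; the correlation of their deviations exceeded 0.1 in 10 pairs (lowest -0.02, median 0.19).

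Named genes were the 4 leading genes, the 12 risers and 10 fallers with the largest change and a mean of at least 5 CPM, up to 5 passing members of each list with Nr3c1 and Nr3c2, and the 6 genes with the smallest p in the contrast of regions. Other genes, among them list members that did not pass, were named after their values were seen. The members and lists were chosen with earlier results of these data known, so the lists are described by counts and medians. Alternatives were DESeq2 1.42.0, upper-quartile scaling, other filters, the replicate block, batch and RIN terms, left-out libraries, thinned counts and limma 3.58.1. Other tools were Python 3.11.15, numpy 2.4.6, pandas 2.3.3 and matplotlib 3.10.9.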

Additional observations from a re-analysis of the deposited data

Results flagged for a closer look

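For 9 named genes the response in CER differed from the mean response of the 7 other regions by the test of that difference (edgeR, adjusted p under 0.05 over 11053 genes). The log2 fold change in CER was higher by 0.96 for Phactr3, 1.09 for Ccng1, 1.02 for Nt5c3, 1.08 for Znfx1, 1.18 for Sgk3 and 0.89 for Phactr4. The same difference was -1.40 for Mthfd2, -0.62 for Cxcl12 and -0.93 for Prox1. The joint fit also passed Traf5 (2.01), Mdm1 (1.76), Gadd45a (1.02) and Pik3c2b (-0.89). These 4 passed the filter on low counts in CER alone among the fits of single regions, so no difference between regions is read from their values.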

How the results depend on the processing

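All named genes kept their direction under every setting in which they were tested. The count of 558 genes (352 higher, 206 lower) was 286 (173 and 113) with at least 10 counts in every library, where 4764 genes were tested, and 283 (181 and 102) with counts thinned to the smallest total, where 5507 were tested. Both settings test fewer genes, and neither tested Itgad or Arc. Of those called, 272 and 267 were among the 558. Leaving out 1 library gave 527 to 597 genes, 332 to 362 higher and 190 to 235 lower. In the contrast of regions, 35 and 21 genes became 22 and 13 with at least 10 counts in at least 50% of the libraries of every group (7566 genes tested), and 37 and 18 without the animal block. With the replicate block 667 genes differed (413 higher, 254 lower), 554 of them among the 558. The block changed no call of the named genes tested in CER; among tested list members it added 14 calls and ended 1 (Angpt1, adjusted p = 0.0603, edgeR), and 8 of 15 libraries correlated best with their own number.

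Of 98 single-gene results 90 kept their call in each setting that tested them, of which at least 10 counts in every library tested only 32. With thinned counts Mthfd2 (0.57, adjusted p = 0.0858, edgeR), Nr1d1 (-0.40, 0.326), Egfl7 (-0.47, 0.0943) and Ppp1r1b (0.35, 0.138) lost theirs. Dbp lost its call without vehicle replicate 15 and in no other setting. Bhlhe40, Dusp7 and Spred1 also lost theirs with thinned counts, without the filter, with limma and with the cortex level as a covariate, and Bhlhe40 with date and plate as factors. Bhlhe40 lost it without vehicle replicate 1, 5, 6, 7, 9, 12 or 14 or dexamethasone replicate 4, 5, 6, 9, 12, 13 or 15 (highest adjusted p = 0.0816, edgeR). Dusp7 lost it without vehicle replicate 2, 5, 7, 9, 10, 12 or 14 or dexamethasone replicate 1, 3, 4, 6, 7, 9, 11 or 15 (highest adjusted p = 0.0852, edgeR). Spred1 lost it without vehicle replicate 3, 6, 7, 9, 10, 11, 13, 14 or 15 or dexamethasone replicate 1, 2, 5, 6, 7, 10, 13 or 14 (highest adjusted p = 0.0904, edgeR). The low totals limit genes of a few CPM most.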
